A study of Mus musculus with 9 samples.

Results

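The cytosolic ribosomal protein genes encode the protein part of the ribosomes that translate nuclear mRNAs. They were taken as the protein-coding rows whose name begins with Rpl or Rps and a digit, plus Rplp0, Rplp1, Rplp2 and Rpsa, with a mean of at least 10 normalized counts over the 9 libraries and without the kinases and pseudogene copies that share the prefix. The rule gave 81 genes of 57180 rows, 48 of the large and 33 of the small subunit, among the 17036 genes that were tested. RNA came from whole hippocampus of 11-day-old C57BL6 mice. In 4 of them (Slc38a3 cKO) Slc38a3, the gene of the sodium-coupled glutamine transporter SNAT3, had been knocked out selectively in endothelial cells, and the other 5 were wild type (wt). The cKO group held 3 males and 1 female (replicate 2), and the wt group 1 male (replicate 1) and 4 females. The labels give no replicate numbers, and those used here follow the order of the records. No source used here names the Cre driver, the deleted exons or the litters, and the RNA held all cell types of the tissue.

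A ribosome carries a single copy of most of these proteins, and cells make them in near-equal amounts. Their mRNAs belong to the TOP class, which begins at a cytosine followed by a run of pyrimidines and is held back or released for translation by LARP1 and mTORC1. In brain, ribosomes also reach dendrites and axons, where local translation takes place. In RNA from a whole tissue, fewer cells of a type and less RNA per cell cannot be told apart.

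The start sites of the genes at both ends of the range of genotype differences are shown first, because the TOP run lies there. Each window holds 40 bases before and 20 bases after the annotated start, 5′ to 3′ on the gene's strand, from the RefSeq promoters of GRCm38.p6, and capitals mark runs of at least 6 C or T. Rps18, Rps12 and Rps27 were among the 6 genes with the largest log2 fold change, and Rpl15, Rpl22l1, Rpl38 and Rps10 among the 6 with the smallest.
Rps18 (chr17:33955646-33955705, minus strand): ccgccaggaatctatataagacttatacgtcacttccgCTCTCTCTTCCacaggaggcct
Rps12 (chr10:23787190-23787249, minus strand): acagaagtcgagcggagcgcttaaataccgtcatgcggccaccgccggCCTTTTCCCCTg
Rps27 (chr3:90213629-90213688, minus strand): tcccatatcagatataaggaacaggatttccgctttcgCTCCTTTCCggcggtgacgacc
Rpl15 (chr14:18270967-18271026, minus strand): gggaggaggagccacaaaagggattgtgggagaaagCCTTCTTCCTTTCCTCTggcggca
Rpl22l1 (chr3:28805468-28805527, plus strand): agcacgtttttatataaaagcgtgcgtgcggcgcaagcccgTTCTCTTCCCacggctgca
Rpl38 (chr11:114668540-114668599, plus strand): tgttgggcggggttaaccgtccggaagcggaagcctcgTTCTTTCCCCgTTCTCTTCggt
Rps10 (chr17:27635225-27635284, minus strand): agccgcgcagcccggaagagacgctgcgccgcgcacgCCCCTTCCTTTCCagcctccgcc
These 7 windows, from both ends of the range, each held a pyrimidine run and were printed for it. Of the other genes at the ends, Rps21 had a run in both of its windows and Rps27l in 1 of its 2. In 1 of the Rps21 windows the run ended more than 20 bases before the start. Rpl3l had none in either of its 2 windows, and Rps4l and Rpl29 had no RefSeq promoter. The longest run had 11 bases in Rps18 and Rps12, 9 in Rps27, 17 in Rpl15, 10 in Rpl22l1 and Rpl38, and 13 in Rps10.

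Of the 81 genes, 60 had a RefSeq promoter, with 72 starts between them, and 21 had none. A run of at least 8 C or T within 20 bases of the start, on the gene's strand, stood at 43.1% of these starts, against 16.0% of all 32851 promoters. The letters CTTTCC, which can lie inside such a run, stood there at 13.9% of the starts, against 1.95% of all promoters. Over the whole promoter of 300 bases, which ends just downstream of the start, CCGGAAG, the core of ETS-type sites, was found on either strand at 36.1% of starts, against 8.86%. GGGCGG was found on either strand at 61.1%, against 35.7%, and TATAAA at 9.72%, against 13.6%. These matches describe letters only, and the share of starts with a run is a property of the annotated start, which can lie some bases from the start used in this tissue.

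Sequencing depth was even, at 30803135 to 34034530 recovered reads per library. The targeted gene followed the labels, with 307.7 to 405.4 normalized counts of Slc38a3 in cKO libraries, against 1804 to 3514 in wt libraries. All 6 markers of hippocampal fields were detected in every library, with a summed level of 34677 to 41042 in cKO and 39440 to 42621 in wt libraries. The share of counts from mitochondrially encoded genes was 2.90 to 3.06% in cKO libraries and 2.75 to 3.35% in wt libraries. It was highest in wt replicates 4 and 5, at 3.35% and 3.31%. Those 2 libraries also held the lowest share of ribosomal protein counts, as given next, and what the mitochondrial share contributes to that was not tested.

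The 81 genes together took 0.955, 1.04, 0.969 and 0.957% of all counts in cKO replicates 1 to 4, against 0.934, 0.936, 0.946, 0.880 and 0.864% in wt replicates 1 to 5. The share averaged 0.981 ± 0.0412% over the 4 cKO libraries and 0.912 ± 0.0371% over the 5 wt libraries (SD). By this share every cKO library lay above every wt library. Still, 3 cKO libraries and 3 wt libraries stood close together, with cKO replicate 2 well above them and wt replicates 4 and 5 well below. On the normalized scale of the tests, the summed counts overlapped, at 304812 to 334523 in cKO and 286258 to 306680 in wt libraries. Total normalized counts were lower in cKO libraries, at 31915313 to 32349505, against 32404543 to 33123134 in wt libraries. Pseudogene rows named after these genes held 0.00162 to 0.00183% of the counts in cKO and 0.00146 to 0.00167% in wt libraries. Few reads were therefore assigned to such copies, though reads that matched several places may have been dropped before counting, a step that no source used here describes.

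Levels within the set were compared per 1000 bases of transcript, using the shortest CCDS transcript of each gene, which 80 of the 81 had. The median was 4590 normalized counts per kb. The acidic stalk protein gene Rplp1 stood highest, at 17305 per kb, followed by Rps24 at 12417, Rpl41 at 11057 and Rps15 at 10937. The lowest was Rpl3l, at 11.1 per kb, a paralog of Rpl3 that is known from heart and skeletal muscle. Rps10 at 92.0 and Rpl13a at 396.5 per kb came next, although their proteins are constant parts of the ribosome. Rpl24, equally a core protein, had a mean of only 7.06 normalized counts and was left out for a mean below 10, as were 6 other rows. These genes have near-identical copies elsewhere in the genome, and how far the counting split their reads was not tested, so their levels are uncertain. In all, 75 of the 81 genes averaged 1000 normalized counts or more.

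No gene of the set passed the test between cKO and wt hippocampus, where limma-trend with sex as a term called 59 of 17036 genes, or 0.346% (0.123% higher and 0.223% lower in cKO), at an adjusted p under 0.05. The smallest adjusted p in the set was 0.175, for Rps18. The log2 fold change was above 0 in 76 of the 81 genes, against 48.8% of all tested genes, and its median was 0.09, a fold of 1.06, against -0.00342 over all tested genes. At an unadjusted p under 0.05, 26 of the 81 genes were higher in cKO and 0 lower, where 4.94% of all genes were higher and 11.3% differed in either direction. The count of 26 became 0 when the single cKO female (replicate 2) was left out, 52 when the single wt male (replicate 1) was, and 15 without wt replicates 4 and 5. With sex as a term, leaving out the cKO female leaves the genotype estimate to the males alone, 3 cKO against 1 wt animal, and leaving out the wt male leaves it to the females alone, 1 cKO against 4 wt. With no sex term, leaving out the cKO female gave 71 of 81 genes above 0. In that fit 9 had an unadjusted p under 0.05, of which 8 were higher in cKO. The share over all genes was not taken in that fit, nor in the fits above with libraries left out. Its cKO libraries were all male and its wt libraries mostly female, so sex and genotype can hardly be told apart there. It called 300 of the 17036 genes at an adjusted p under 0.05, against 59 in the main fit. The genes vary together from library to library, so these counts do not amount to 81 separate observations.

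**Figure D1:**
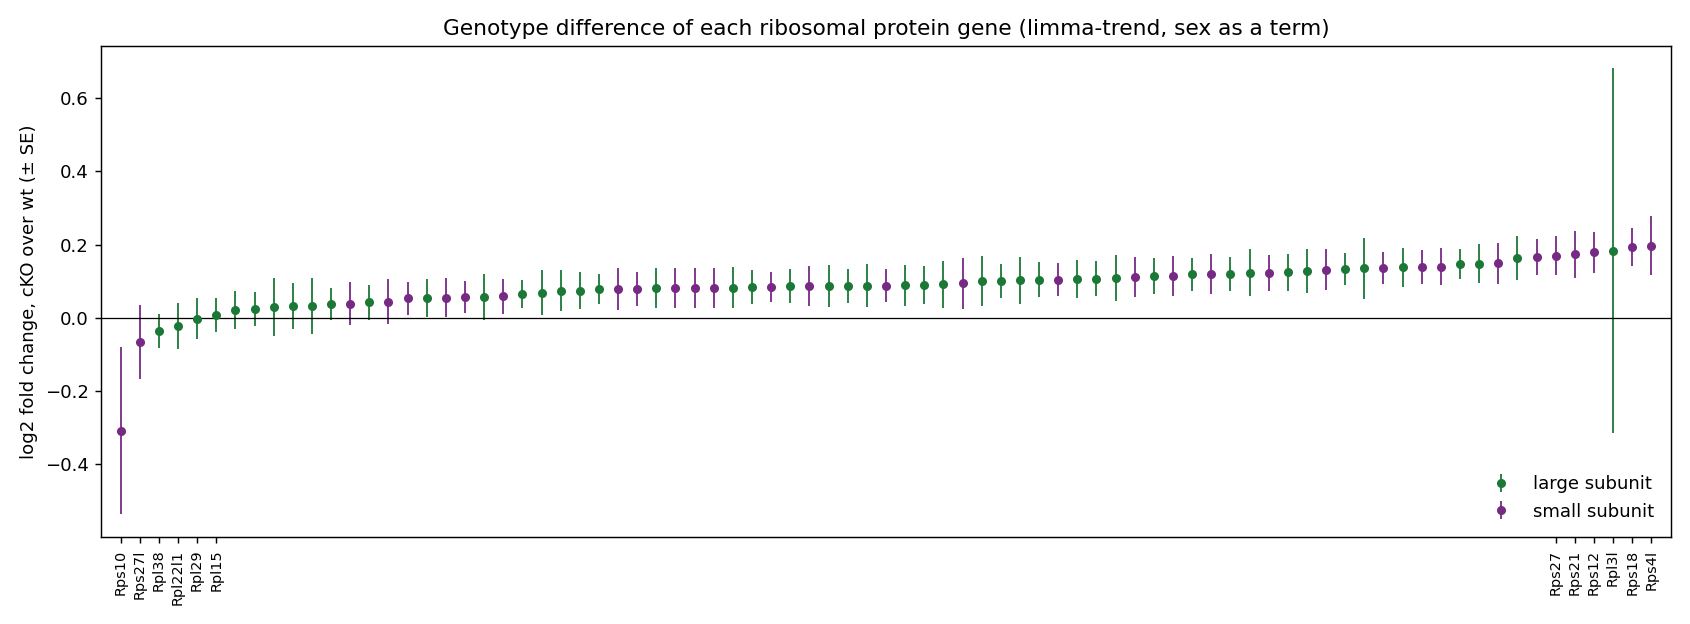
The log2 fold change of cKO over wt (points, vertical axis) with its standard error (bars) is drawn for each of the 81 genes, ordered along the horizontal axis and coloured by subunit, with names under the 6 smallest and the 6 largest. Of the 81 points, 76 lie above 0, and the values run from -0.31 for Rps10 to 0.20 for Rps4l, with the widest bar for the scarce Rpl3l.

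The 2 subunits were read apart, and the difference between them was not tested. For the large subunit 45 of 48 genes lay above 0, with a median of 0.087 and quartiles of 0.057 and 0.115. Of these 48 genes 12 had an unadjusted p under 0.05. For the small subunit 31 of 33 lay above 0, with a median of 0.094 and quartiles of 0.078 and 0.138. Of these 33 genes 14 had an unadjusted p under 0.05. The quartiles of the 81 log2 fold changes were 0.06 and 0.12. In 4 genes every cKO library stood above every wt library, and in 0 genes below, where 2.58% of all tested genes had every cKO library above and 6.29% had groups without overlap in either direction. Rps18, Rps12 and Rpl32 were among the 4, and Rpl32 was picked out after its values were seen. Rpl32, of the large subunit, had 3801, 4221, 4020.0 and 3787 normalized counts in cKO, against 3721, 3744, 3686, 3585 and 3346 in wt libraries. The cKO female was highest and wt replicates 4 and 5 were lowest, and the lowest cKO value came close to the highest wt value.

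Rps18, a protein of the head of the small subunit, carried the smallest p (ENSMUSG00000008668, chromosome 17, 34170972 to 34174975 in GRCm39). It had 3739.8, 4094, 3634 and 3584 normalized counts in cKO replicates 1 to 4, against 3450.4, 3405, 3486, 3208 and 3230.2 in wt replicates 1 to 5. The cKO values all lay above the wt values, with the highest in the female cKO and the lowest in wt replicates 4 and 5. Its log2 fold change was 0.19 ± 0.0524 (SE, adjusted p = 0.175 by limma). The gene overlaps Vps52, and since no strand setting of the counting is stated, reads of the overlap cannot be told apart.

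Rps12, a small-subunit protein known in fruit flies for its part in cell competition (ENSMUSG00000061983, chromosome 10, 23661080 to 23663173 in GRCm39), had 4258, 4946, 4350.0 and 4288 normalized counts in cKO, against 4152, 4135, 4218, 3810.4 and 3929 in wt libraries. The groups did not overlap, though the gap between the lowest cKO value and wt replicate 3 was small beside the spread within either group. The log2 fold change was 0.18 ± 0.0554 (SE, adjusted p = 0.246 by limma). Rps27, a zinc-finger protein of the small subunit, had 2733, 3044, 2869 and 2881 in cKO, against 2602, 2805, 2682, 2562 and 2444 in wt libraries, and the lowest cKO value lay below wt replicate 2. Its log2 fold change was 0.17 ± 0.0528 (SE, adjusted p = 0.247 by limma). Rps21, which sits on the body of the small subunit, had 2592, 3101, 2792 and 2586 in cKO, against 2555, 2706, 2675, 2333 and 2488 in wt libraries. Here the groups overlapped widely, and the log2 fold change was 0.17 ± 0.0647 (SE, adjusted p = 0.329 by limma).

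The largest log2 fold change of the set belonged to Rps4l, an autosomal copy of the X-linked Rps4x (ENSMUSG00000063171, chromosome 6, 148256097 to 148257431 in GRCm39). Rps4l had 731, 844, 699 and 779 normalized counts in cKO, against 726, 642, 702, 627 and 653 in wt libraries, and wt replicates 1 and 3 lay within the cKO range. Its log2 fold change was 0.20 ± 0.0796 (SE, adjusted p = 0.371 by limma), and the gene overlaps Tmtc1. Rps4x itself had 7713, 8932, 8177 and 8163 in cKO, against 7788, 7687, 7823, 7585 and 7388 in wt libraries. Cross-assignment of reads between these copies cannot be judged from the counts.

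**Figure D2:**
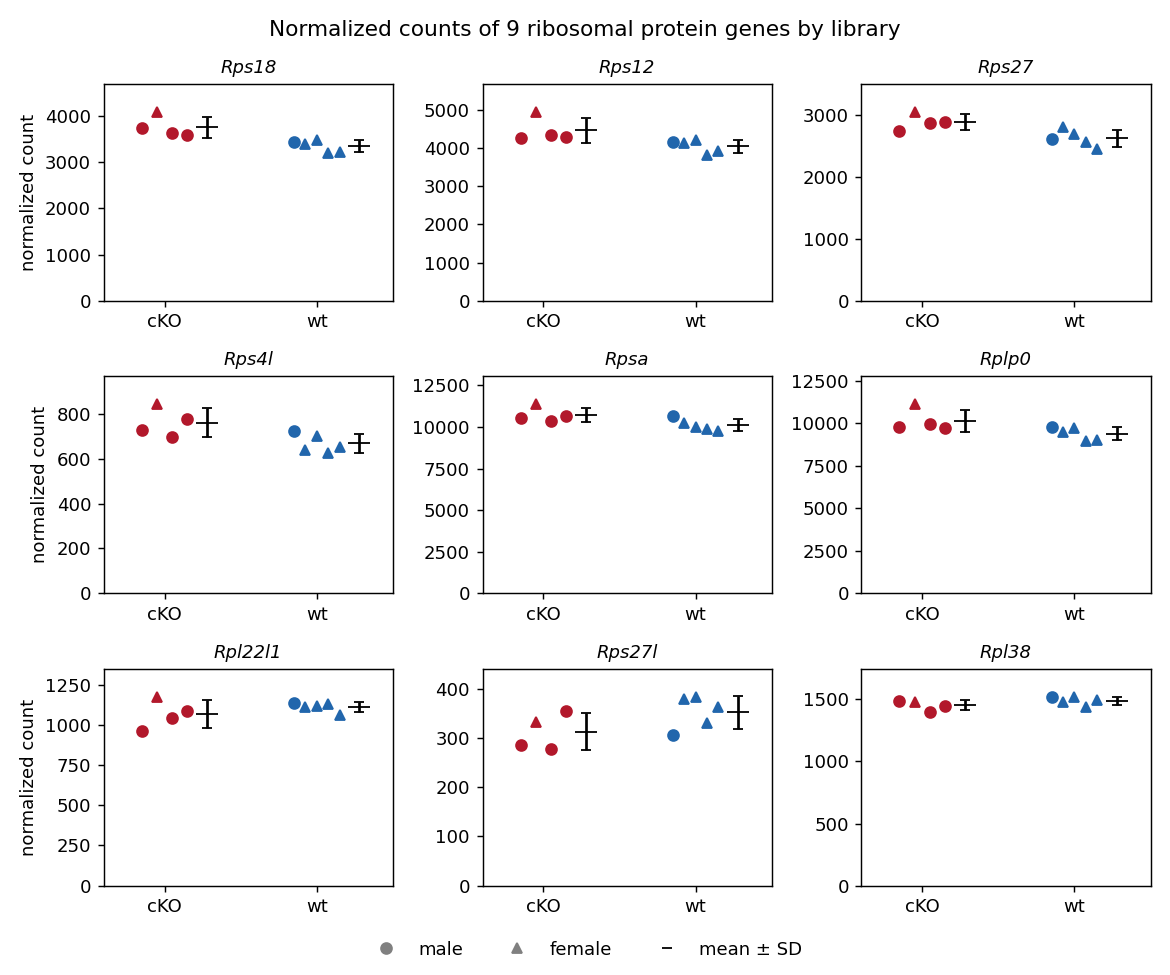
Normalized counts (vertical axes, from 0) of 9 ribosomal protein genes are shown in each cKO library, left, and each wt library, right, with circles for males, triangles for females and crosses for the mean ± SD (n = 4 and 5). In Rps18, Rps12, Rps27, Rps4l, Rpsa and Rplp0 the cKO female is the highest point, while Rps27l and Rpl38 have their highest point outside that library.

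The log2 fold change was below 0 in 5 of the 81 genes. Rps10, a small-subunit protein that is mutated in some cases of Diamond-Blackfan anaemia in humans, had only 52.7, 30.4, 51.3 and 47.1 normalized counts in cKO, against 54.9, 43.6, 30.3, 59.2 and 43 in wt libraries. These values overlapped entirely, and the log2 fold change was -0.31 ± 0.228 (SE, adjusted p = 0.637 by limma). Rps27l, the p53-inducible paralog of Rps27, had 286, 333, 278 and 355 in cKO, against 305, 379, 383, 330.3 and 363 in wt libraries, with the groups overlapping and a log2 fold change of -0.07 ± 0.101 (SE). It thus stood below 0 while Rps27 stood above 0, with neither passing the test and the difference between them not tested. Rpl38, whose loss in mice disturbs the patterning of the axial skeleton, was the steadiest of these genes. Its values were 1489, 1477, 1401 and 1449 in cKO, against 1519.8, 1476, 1517, 1436 and 1494 in wt libraries, with a log2 fold change of -0.04 ± 0.0471 (SE). Rpl22l1 and Rpl29 were at -0.02 ± 0.0632 and -0.00 ± 0.0561, and Rpl15, just above 0, was at 0.01 ± 0.0465 (SE each).

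The paralog pairs let near-copies of 1 protein be set side by side. Rpl22l1, which replaces Rpl22 in some ribosomes, had 965, 1174, 1045 and 1084 normalized counts in cKO, against 1134, 1109, 1121, 1133 and 1062 in wt libraries. Rpl22 had 4538, 4988, 4748 and 4879.7 in cKO, against 4522, 4546, 4564, 4221 and 4335 in wt libraries. The cKO libraries of Rpl22l1 spread to both sides of the narrow wt range, whereas for Rpl22 only cKO replicate 1 lay within the wt range. The log2 fold change of Rpl22 was 0.12 ± 0.0466 (SE, adjusted p = 0.347 by limma), and the difference between the paralogs was not tested. Rpl7l1, a nucleolar protein of large-subunit assembly, had a log2 fold change of 0.03 ± 0.0625 (SE) and its relative Rpl7 one of 0.10 ± 0.0475 (SE). Rpl3 had 9621 ± 487 in cKO and 9003 ± 206 in wt libraries (mean ± SD, n = 4 and 5). Rpl3l had 3.77 to 20.9 normalized counts across all 9 libraries, too few for its log2 fold change of 0.18 ± 0.499 (SE) to be told from 0.

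The ribosomal stalk, a lateral arm of the large subunit that recruits the elongation factors, is built from Rplp0, Rplp1 and Rplp2. Rplp0 had 9792, 11114, 9964 and 9724 normalized counts in cKO, against 9765, 9476, 9727, 8966 and 8998 in wt libraries. Apart from the high cKO female and the low wt replicates 4 and 5, the libraries of both groups lay close together. Its log2 fold change was 0.14 ± 0.053 (SE, adjusted p = 0.343 by limma). Rplp1 had 8746, 9292, 8951 and 8329.9 in cKO, against 9001, 8721, 8577, 8128 and 7971 in wt libraries, with a wt male above 3 of the 4 cKO libraries. Rplp1 and Rplp2 gave log2 fold changes of 0.05 ± 0.0526 and 0.09 ± 0.0587 (SE each), and neither passed.

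Rpsa, which doubles as a laminin receptor at the cell surface, was among the 3 genes with the highest counts, with 10520.3, 11354, 10375 and 10638 normalized counts in cKO, against 10652, 10250.0, 9972, 9883 and 9767 in wt libraries. The wt male lay above 3 of the 4 cKO libraries, all of them male, while every wt female lay below every cKO library. Its log2 fold change was 0.09 ± 0.0457 (SE, adjusted p = 0.488 by limma). Rpl4, a protein that lines the exit tunnel and had the highest mean count of the set, averaged 13788 ± 452 in cKO and 13398 ± 281 in wt libraries (mean ± SD, n = 4 and 5), and its log2 fold change was 0.06 ± 0.0386 (SE).

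The 4 X-linked genes, Rpl10, Rpl36a, Rpl39 and Rps4x, were set out apart because the sexes were split unevenly between the groups. Rpl10, a late-joining large-subunit protein near the peptidyl transferase centre, had 3559.8, 4036, 3853 and 3758 normalized counts in cKO, against 3506, 3563, 3562, 3519 and 3079.7 in wt libraries. Its lowest cKO value lay within the wt range, and wt replicate 5 stood far below the other 4 wt libraries. The log2 fold change was 0.16 ± 0.0596 (SE, adjusted p = 0.319 by limma). Rps4x, Rpl36a and Rpl39, of which Rpl39 sits at the tunnel exit, gave 0.14 ± 0.0469, 0.09 ± 0.0568 and 0.08 ± 0.0555 (SE each). Males over females, the log2 difference was -0.04 ± 0.0596 for Rpl10 and -0.06 ± 0.0469 for Rps4x (SE each). For Rpl36a and Rpl39 it was -0.02 ± 0.0568 and 0.02 ± 0.0555 (SE each), where the median over all 81 was -0.03.

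The 81 genes varied together from library to library, and most of them were highest and lowest in the same few libraries. Of the 81 genes, 65 had their highest value in cKO replicate 2, 66 had their lowest in wt replicate 4 or 5, and 56 did both. Over all 17036 tested genes, 2492 were highest in cKO replicate 2, while 2658 were lowest there. In wt replicates 4 and 5, 2081 and 1848 of all tested genes were lowest, and the share doing both was not taken over all genes. The median deviation from a gene's own mean over the 9 libraries was 0.01, 0.12, 0.04 and 0.00 on the log2 scale in cKO replicates 1 to 4, against -0.00, 0.01, 0.01, -0.08 and -0.09 in wt replicates 1 to 5. Thus cKO replicate 2 was above the mean in 79 genes, wt replicate 4 below it in 76 and wt replicate 5 below it in 77. Of the other 6 libraries, cKO replicate 3 was above it in 64 genes, by less, and the rest lay near it. Without cKO replicate 2 the median log2 fold change was 0.02, with 49 of 81 genes above 0, and 0 genes had an unadjusted p under 0.05, in a fit where the estimate rests on 1 wt male. Without cKO replicate 2 and with no sex term the median was 0.05, with 71 of 81 above 0, in a fit where every cKO library was male. Without wt replicates 4 and 5, the libraries of the highest mitochondrial share, it was 0.06, with 72 of 81 above 0.

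**Figure D3:**
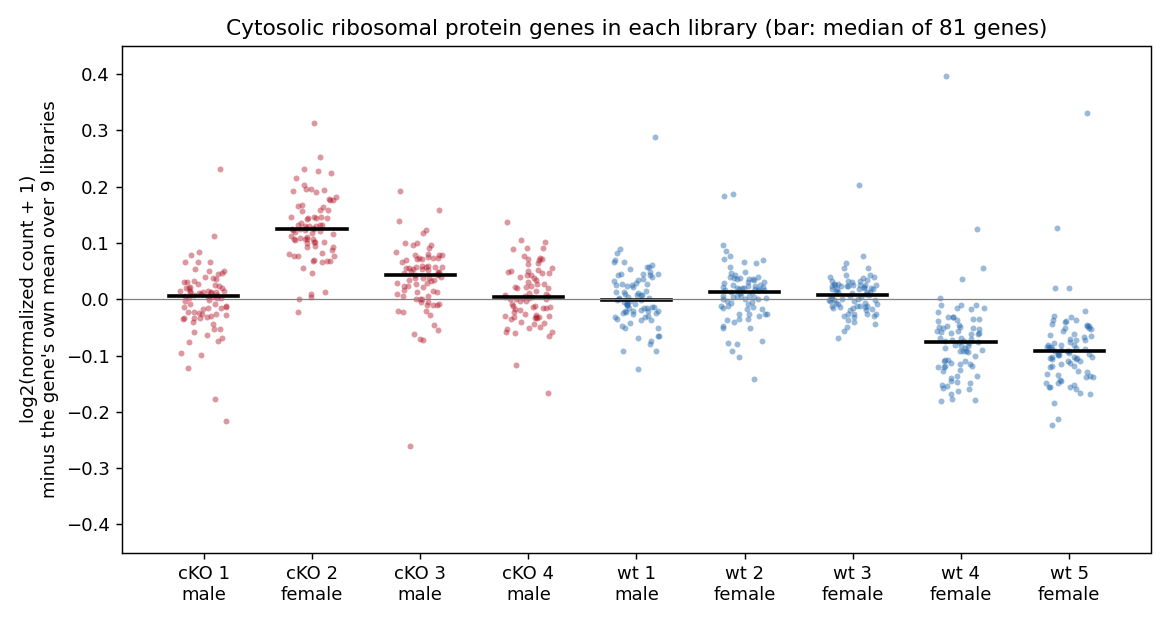
Each point is 1 of the 81 genes in 1 library, placed by its log2(normalized count + 1) minus its mean over the 9 libraries (vertical axis), and the bars are medians, with 8 of 729 points beyond ±0.45 not drawn. The cKO female stands above 0 with a median of 0.12, and wt replicates 4 and 5 stand below it at -0.08 and -0.09. Of the remaining libraries cKO replicate 3 has a median of 0.04, and the others lie close to 0.

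Part of the spread was shared by most of the genes. The median SD of a gene over the 9 libraries was 0.0779 on the log2 scale, and 0.0452 once each library was set relative to the mean of the 81 genes. The SD became smaller in 73 genes and larger in 8, Rpl38, Rps27l, Rps10, Rpl22l1 and Rpl15 among these. Scaled in that way, 0 genes passed and 2 had an unadjusted p under 0.05, where the share over all genes was not taken. The 44 genes above and 37 below 0 under that scaling, and a shift of all tested genes to a median of -0.09, follow from centring on the same 81 genes and say nothing of the genotype.

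Markers of other cells were read beside this pattern. Of 12 marker lists with 76 markers, none of which was at 0 in all libraries, 2 had their highest mean log2 level in cKO replicate 2. These were the 7 astrocyte markers, at 0.08 above their mean over the libraries and with a summed level of 150815 to 160002 in cKO and 150157 to 165680 in wt libraries, and the 6 oligodendrocyte markers, at 0.31 above their mean and with 20969 to 32164 in cKO and 20697 to 30894 in wt libraries. By summed level the astrocyte markers were highest in wt replicate 5. Of the astrocyte markers 1 passed the test as higher and 1 as lower in cKO, and of the oligodendrocyte markers 0 passed, with 6 of 6 above 0 in the fit with sex as a term, although their mean log2 level without that term was -0.05 in cKO and 0.04 in wt libraries. By mean log2 level only the mural list was lowest in wt replicate 4 or 5.

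Levels of other marker lists stood beside these as follows. The 9 neuron markers summed to 240345 to 248936 in cKO and 251991 to 260020 in wt libraries, without overlap, with 0 passing and 7 below 0. The 7 microglia markers summed to 6657 to 7637 in cKO and 7764 to 8151 in wt libraries, without overlap, with 0 passing and 6 below 0. By mean log2 level the microglia list did overlap, at -0.17 to 0.07 in cKO and 0.04 to 0.12 in wt libraries. Its highest cKO value was in replicate 2, within the wt range. For the 5 markers of oligodendrocyte precursors the sums were 13077 to 13428 in cKO and 13658 to 14726 in wt libraries, without overlap. Of these 0 passed and 5 were below 0. The 6 mural markers summed to 9754 to 11119 in cKO and 11406 to 12644 in wt libraries, without overlap. Of these 0 passed, 4 were below 0 and 2 above 0. Most of that sum came from Rgs5, at a mean of 7569. By mean log2 level the mural list overlapped widely, at -0.10 to 0.16 in cKO and -0.14 to 0.31 in wt libraries. The 7 endothelial markers, of the cell type in which Slc38a3 was deleted, summed to 5699 to 6324 in cKO and 6262 to 7087 in wt libraries, and 1 passed as lower. The 8 markers of meningeal fibroblasts summed to 7700 to 9354 in cKO and 5459 to 9102 in wt libraries, with 0 passing, 7 above 0 and a median log2 fold change of 0.44. Sums of the choroid plexus, immature neuron and blood lists overlapped between the groups. Those of the 5 choroid plexus markers ran from 558 to 32745 in cKO and from 572 to 43336 in wt libraries. The part of all these cells in the level of the ribosomal protein genes was not tested.

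The genotype difference was also taken within each sex. In females, where 1 cKO stood against 4 wt animals, the median log2 difference was 0.18 and 77 of 81 genes were above 0. In males, where 3 cKO stood against 1 wt animal, the median was 0.02, with 49 above and 32 below 0. The test of the difference itself, the interaction of sex and genotype, called 0 of the 81 genes, with a background of 0.00587%. Its estimate, the male effect minus the female effect, was below 0 in 76 of 81 genes, against 50.8% of all genes, with a median of -0.15. At an unadjusted p under 0.05 it took 22 of the 81, against 7.90% of all genes. With 1 animal in a cell of the design on each side, the sex of the cKO female and that animal itself cannot be told apart.

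Rplp0 and Rpsa were among the 3 genes of smallest interaction p, at -0.25 ± 0.0812 and -0.21 ± 0.0712 (SE, adjusted p = 0.57 for each by limma). In both the cKO female was the highest library, and the wt male lay within or above the range of the 3 cKO males. The sex term alone called 0 of 81 genes, against a background of 0.0528%, and 4 had an unadjusted p under 0.05, against 6.73%. Estimates for males over females were below 0 in 66 of 81, against 49.8% of all genes. Rps24, a small-subunit protein also mutated in Diamond-Blackfan anaemia, was at -0.12 ± 0.0433, Rpl34 at -0.10 ± 0.044 and Rps10 at 0.52 ± 0.228 (SE, adjusted p = 0.7, 0.728 and 0.739 by limma).

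**Figure D4:**
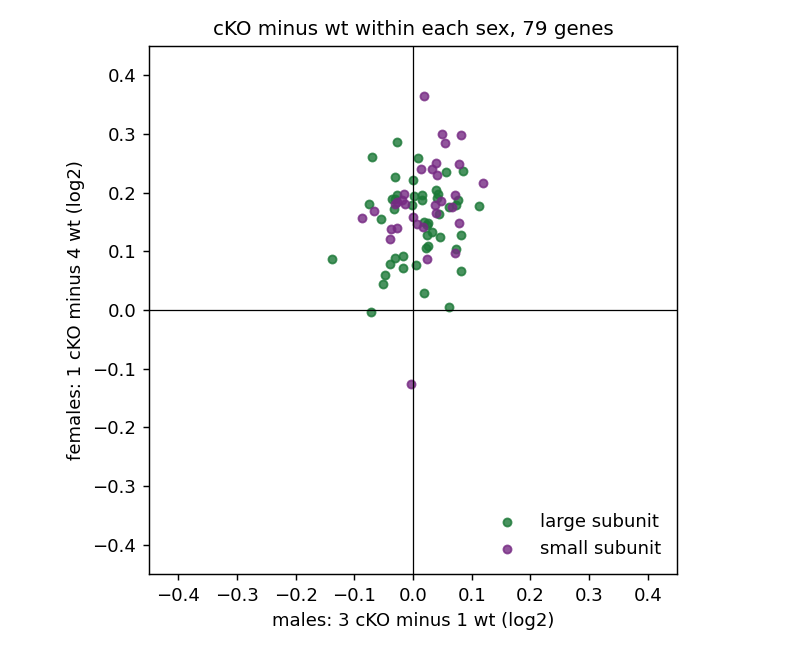
The log2 difference of cKO minus wt among females (vertical axis, 1 against 4 animals) is set against that among males (horizontal axis, 3 against 1) for 79 genes, without the scarce Rpl3l and Rps10. Almost all points lie above 0 on the female axis, with a median of 0.18 over all 81 genes, and on both sides of 0 on the male axis, with a median of 0.02.

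The remaining genes of the translation machinery were read from lists. Of 3 other ribosome proteins, Fau and Rack1 among them, 0 passed, and their median log2 fold change was 0.06. Rack1, the signalling scaffold of the small subunit, had 6525, 7283, 6880.0 and 6340.3 normalized counts in cKO, against 6539, 6446, 6512, 6119.8 and 6284 in wt libraries, again highest in the cKO female and lowest in wt replicates 4 and 5. Of 21 elongation factors and other TOP genes 0 passed, and 19 were above 0 with a median of 0.06. In 5 the unadjusted p was under 0.05, all higher, where 4.94% of all genes were higher at that p. Eif4b, which assists the helicase of the initiation complex, had 8597, 8799.6, 8874 and 9230.4 in cKO, against 7798, 8154, 8008, 7992 and 7937 in wt libraries. The groups did not overlap, the highest value was in a cKO male, and the log2 fold change was 0.16 ± 0.0386 (SE, adjusted p = 0.133 by limma). Eif3e, a subunit of the initiation factor that binds the small subunit, was at 0.15 ± 0.0486 (SE, adjusted p = 0.256 by limma).

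Genes that make and assemble ribosomes gave medians nearer 0. Of 15 genes of RNA polymerase I, which transcribes the rRNA precursor, 0 passed and 8 were above 0, with a median of 0.00. Of 26 genes of rRNA processing 0 passed and 17 were above 0, with a median of 0.03. Among these Rrs1, an assembly factor of the large subunit, had 629, 615, 706 and 698 in cKO, against 805, 730.1, 771, 750.0 and 785 in wt libraries, with every cKO value below every wt value. Its log2 fold change was -0.28 ± 0.0626 (SE, adjusted p = 0.101 by limma), while the nucleolar GTPase Gnl3 stood at 0.19 ± 0.0632 (SE). Of 21 genes of late assembly 0 passed and 9 were above 0, with a median of -0.01, and Mdn1 stood at -0.27 ± 0.0875 (SE). Of 16 regulators of TOP mRNAs, LARP1 and mTOR among them, 0 passed and 6 were above 0, with a median of -0.03, and Eif4g1, the initiation scaffold, stood at -0.10 ± 0.0359 (SE).

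The ribosome of mitochondria has a protein set of similar size. Of its 78 genes 0 passed, 42 were above 0 and 36 below, with a median log2 fold change of 0.01. Mrpl36 had a mean of 428 ± 9.86 normalized counts in cKO and 530.4 ± 36.5 in wt libraries (SD, n = 4 and 5), with a log2 fold change of -0.28 ± 0.075 (SE, adjusted p = 0.168 by limma). Of 88 nuclear subunits of the respiratory chain 0 passed, with 43 above and 45 below 0 and a median of -0.00. The difference between these lists and the cytosolic ribosomal protein genes was not tested. The mitochondrial ribosome, too, was highest in cKO replicate 2 and lowest in wt replicate 5, at 0.05 and -0.05 on the log2 scale, against 0.12 and -0.09 for the 81 genes. So was the list of rRNA processing, at 0.04 and -0.05. Of the 88 respiratory chain genes 37 were highest in cKO replicate 2, though by mean log2 level that list was highest in wt replicate 2.

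**Figure D5:**
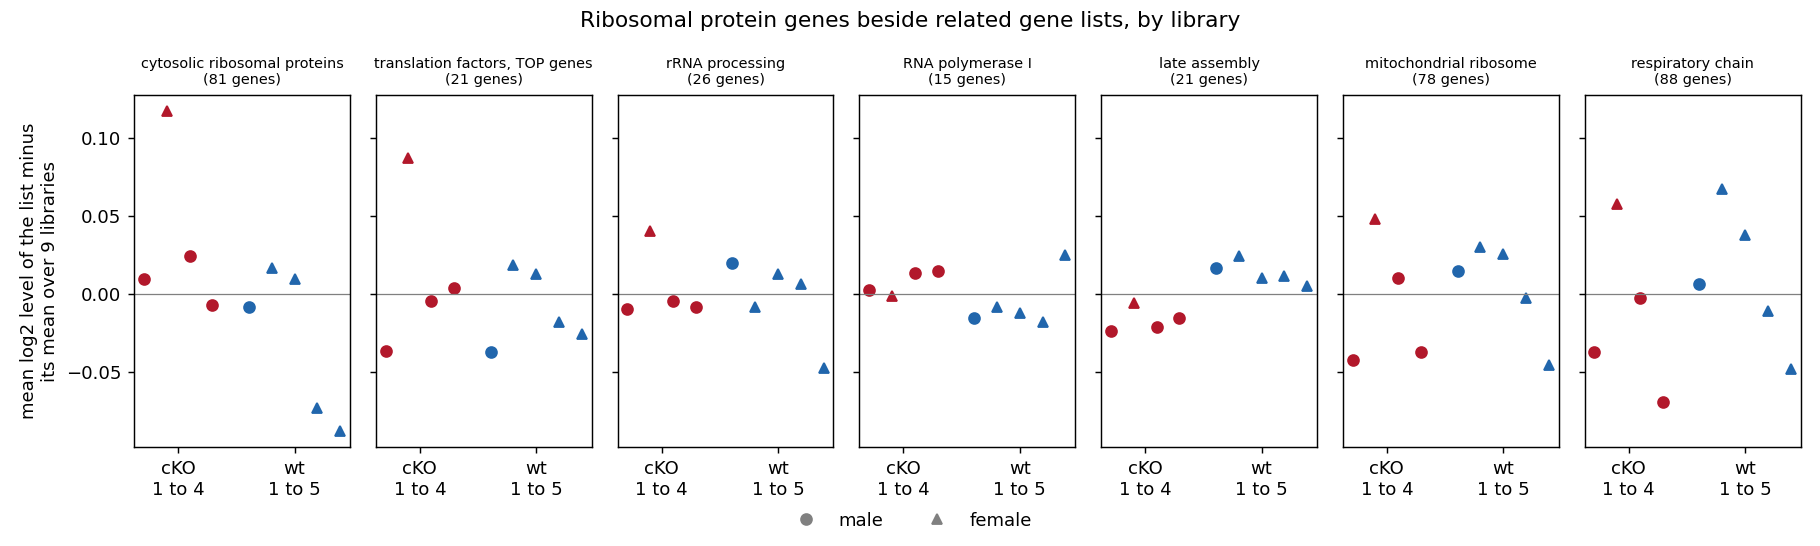
The mean log2 level of each of 7 gene lists minus its mean over the 9 libraries (vertical axis) is shown for cKO replicates 1 to 4, left in each panel, and wt replicates 1 to 5, right, with circles for males and triangles for females. The cytosolic ribosomal proteins range from -0.09 in wt replicate 5 to 0.12 in the cKO female, the widest range of the 7 panels, while the RNA polymerase I and late assembly lists stay within 0.03 of 0.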

How the data were processed

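Whole-hippocampus RNA from 9 animals was made into libraries together with a directional kit, per the labels' protocols. Per the submitters' processing notes, reads were handled with STAR 2.7.10b on GRCm39, cutadapt 4.4, FastQC 0.12.1 and also DESeq2 1.41.8. Neither the read counter nor the annotation release nor a strand setting is given in the sources used here. Each deposited signal value is a gene count over the size factor of its library, kept to 2 decimals, as the values show, so levels of genes differ also by length. Division by that step, 0.943 to 1.08, returned whole reads (tolerance 0.1) for 100.0% of nonzero values. In cKO replicate 1 and wt replicates 1 and 4 the step is so near 1 that low values hardly separate it from rounding.

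The test was limma-trend (limma 3.58.1, R 4.3.3) applied to log2(normalized count + 1), with terms for genotype and sex, over 17036 genes with a mean of at least 10, with Benjamini-Hochberg adjusted p under 0.05. Fold changes are on that scale and adjusted for sex. The scripts were tested on simulated data. Alternatives were other pseudocounts and filters, TMM, scaling to the set's mean, a robust fit, the recovered reads in DESeq2 1.42.0 and in edgeR 4.0.16, a fit without sex, females or males alone, and libraries left out. Tables and figures were made in Python 3.11.15 (pandas 2.3.3, matplotlib 3.10.9, numpy 2.4.6). Pairs of libraries of a group had a chi-square per gene of 4.04 to 15.4, more than sampling noise gives. The pairs with cKO replicate 2 stood highest, at 14.2 to 15.4, and wt replicates 4 and 5 were the closest pair, at 4.04. Whether animals shared a litter is not stated, so the p-values cover only the variation among these samples.

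The gene set, the lists and the tests were chosen with earlier results of these data known. Of 88 protein-coding rows that met the name rule, 7 had a mean under 10, and 3 rows ending in -ps and a number were left out. Named were the 6 genes with the largest and the 6 with the smallest log2 fold change, stalk and X-linked genes, Rpsa, paralogs with their partners, the 3 highest and 3 lowest means, the 3 smallest p for sex and for the interaction, and up to 2 genes of each list, 27 members in all. Results of a few single genes are not reported here, and the counts over the set and the lists include them. Transcript lengths came from the GENCODE annotation of GRCm38, matched by gene. Promoters were matched by symbol in RefSeq GRCm38.p6, and other coordinates are those of the deposited table in GRCm39.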

Additional observations from a re-analysis of the deposited data

Results flagged for a closer look

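In 56 groups of 4 or 5 libraries, of the 27 named members and of the share of counts, the library at either end was set against the rest. In 3 groups 1 library stood far apart from the others. Chance gives about 1 in 20, so this count is near that of chance. The named genes vary together, so the 56 groups are not separate. The share of counts in the ribosomal protein genes was 1.04% in cKO replicate 2, the only cKO female, against 0.955 to 0.969% in the other 3 cKO libraries. Rps12 had 4946 normalized counts in cKO replicate 2, against 4258 to 4350.0 in the other 3. Rpl10 had 3080 normalized counts in wt replicate 5, against 3506 to 3563 in the other 4 wt libraries.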

How the results depend on the processing

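In each of the 23 alternatives 0 of the 81 genes passed. The smallest adjusted p was 0.0504, with DESeq2 on recovered reads. Scaling to the mean of the set puts the median log2 fold change near 0 by construction (0.00075), and in the other alternatives it was above 0. It was 0.176 in females only and 0.0185 in males only, and from 0.0185 to 0.176 with single libraries left out, where the lowest came without cKO replicate 2 and the highest without wt replicate 1. These 2 fits give the same estimates as males only and females only. The count above 0 was 44 when scaled to the set, 49 in males only, and 49 to 77 with single libraries left out. Leaving out wt replicates 4 and 5 together, or cKO replicate 2 with no sex term (71 above 0, median 0.05), were alternatives chosen after seeing the data. Calls over all genes ran from 3 in males only to 300 without cKO replicate 2 and with no sex term, against 59. They were 200 with DESeq2, 216 with no sex term, and 10 to 65 with single libraries left out, the lowest without cKO replicate 2. No paired analysis was possible because no source used here names pairs or litters of animals. The replicate numbers used here follow the order of the records.

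Of 619 values of named genes under alternatives, 578 kept their sign and 41 turned, none of them past the threshold. Scaled to the set, Rpl15 was -0.0792, Rpl39 -0.00441, Rpl4 -0.022, Rpl7l1 -0.0554 and Rplp1 -0.0328. With no sex term, Rpl15 was -0.0174, Rpl29 0.0263 and Rpl3l -0.374. In males only, Rpl15 was -0.0478, Rpl39 -0.0308, Rpl7l1 -0.0304, Rplp1 -0.0538, Rplp2 -0.027 and Rpsa -0.0194. Without wt replicates 4 and 5, Rpl15 was -0.00484 and Rpl7l1 -0.0134. With no sex term and without cKO replicate 2, Rpl15 was -0.0427, Rpl29 0.0268, Rpl3l -0.548 and Rps10 0.157. In females only, Rpl22l1 was 0.0863, Rpl29 0.0442 and Rpl3l -0.115. With TMM, Rpl29 was 0.00302. With edgeR, Rpl29 was 0.00216. With single libraries left out the values ran from -0.0478 to 0.0598 for Rpl15, -0.138 to 0.0863 for Rpl22l1, -0.0512 to 0.0442 for Rpl29, -0.0308 to 0.189 for Rpl39, -0.146 to 0.501 for Rpl3l, -0.0304 to 0.0896 for Rpl7l1, -0.0538 to 0.155 for Rplp1, -0.027 to 0.195 for Rplp2 and -0.0194 to 0.188 for Rpsa. The cause of these turns was not tested.

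Counting error is small at these depths for all but the scarcest genes. With 1 cKO female and 1 wt male, differences of the size seen here were not resolved for single genes.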
